A study of Mus musculus with 4 samples.

Results

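The casein-rich luminal cells described here were 245 cell barcodes of the 5 months library in a single-cell RNA-seq series on mouse mammary epithelium and mammary tumours. A barcode was a member when it had at least 500 detected genes, at most 10% mitochondrial UMIs (unique molecular identifiers, a count of captured mRNA molecules), at least 3 UMIs of the luminal keratin genes Krt8 and Krt18 together, no UMI of the leukocyte gene Ptprc, and at least 1% of its UMIs from the caseins Csn1s1, Csn1s2a and Csn2. They were 245 of the 431 luminal barcodes of that library (56.8%, exact 95% binomial interval 52.0 to 61.6%), which held 4836 barcodes, and the series held 10781. The comparison group was the other 186 luminal barcodes, those under 1% casein.

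All libraries came from female mice of mixed genetic background with floxed Trp53 and Brca1 and a YFP reporter (Trp53L/L;Brca1L/L;R26Y). Cre came from Ad-K8-Cre, an adenovirus injected into the ducts in which the keratin 8 promoter directs Cre to luminal cells. The 5 months library, made about 5 months after injection, held YFP+ mammary epithelial cells and, sorted alongside them, CD45+ leukocytes. The 2 weeks library held YFP+ epithelial cells, and tumour 1 and tumour 2 came from tumours of the same model. Members and comparison barcodes share the genotype, the virus and the library, and no mouse without Cre was analysed here. How many mice were used, and how the sorted populations were mixed, is not stated in the labels. With 1 library there is no sample-level replicate, so no test was made, and every interval covers counting error only.

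Caseins are the main proteins of milk and are made by alveolar cells, which arise from luminal progenitors. Prolactin acts through its receptor, JAK2 and the transcription factor STAT5, together with ELF5, to switch on casein and other milk protein genes. The other luminal lineage, the hormone-sensing cells, carries oestrogen and progesterone receptors and signals to its neighbours through secreted factors such as amphiregulin.

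STAT5 binds the palindrome TTCNNNGAA. The promoters of 3 milk genes of the class that hold this motif are shown because they include both casein genes with a match, Csn1s1 and Csn2, and Glycam1, a milk mucin-like protein whose transcripts came from few members, mostly rich in casein. Each is the 250 bases before the gene's start, from RefSeq on GRCm38.p6, with the motif in capitals.
Csn1s1, chr5:87665958-87666207, plus strand: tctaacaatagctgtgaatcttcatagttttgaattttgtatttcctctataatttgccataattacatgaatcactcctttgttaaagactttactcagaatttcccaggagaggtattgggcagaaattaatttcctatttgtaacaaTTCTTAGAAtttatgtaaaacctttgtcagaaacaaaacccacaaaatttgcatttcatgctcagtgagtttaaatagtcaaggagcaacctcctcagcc
Csn2, chr5:87699426-87699675, minus strand: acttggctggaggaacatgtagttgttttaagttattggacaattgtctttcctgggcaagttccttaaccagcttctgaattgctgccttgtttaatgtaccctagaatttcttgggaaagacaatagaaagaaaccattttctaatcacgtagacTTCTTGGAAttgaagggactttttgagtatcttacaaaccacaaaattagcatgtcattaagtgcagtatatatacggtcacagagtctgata
Glycam1, chr15:103565082-103565331, minus strand: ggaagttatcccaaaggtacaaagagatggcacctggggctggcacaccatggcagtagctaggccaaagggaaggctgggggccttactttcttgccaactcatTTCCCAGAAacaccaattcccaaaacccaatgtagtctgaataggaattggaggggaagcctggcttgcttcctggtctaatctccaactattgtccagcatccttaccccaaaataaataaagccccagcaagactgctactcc
The first base of the motif lay 100 bases before the start in Csn1s1 (TTCTTAGAA), 93 in Csn2 (TTCTTGGAA) and 145 in Glycam1 (TTCCCAGAA). Of 16 milk genes looked up, 11 had a promoter entry and 3 held the motif, which reads the same on both strands. Among all 32851 RefSeq promoters of this length, 2306 (7.02%) held it. A match is a description of letters, not of binding. Csn1s2a, Lalba and Wap had no match in this window. For Csn1s2a and Wap, the bases just after the listed start were not found near the start of a GENCODE transcript of the gene. Whether their windows lie at the promoter was therefore not established.

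Members were chosen by their measured casein, keratin and Ptprc counts, so the casein share is a description. It ran from 1.01% to 52.4% of a member's UMIs, with a median of 4.93% and quartiles of 2.40% and 10.1%. In 62 members it was at least 10%, and in 19 at least 20%. The shares had no gap at the 1% limit: the 5 members just inside had 1.01, 1.02, 1.03, 1.04 and 1.09%, and the 5 barcodes just outside had 0.990, 0.984, 0.976, 0.961 and 0.950%. In the comparison group the median was 0.0993%, and 45 of the 431 luminal barcodes had no casein UMI. Free RNA was gauged in 2148 leukocyte barcodes with Ptprc but no Krt8 or Krt18. Asking for no keratin UMI can leave out leukocyte barcodes with more free epithelial RNA, so this gauge may be low. Of these, 762 had a casein UMI, the highest share was 0.275%, and 0 reached 1%. The members, chosen at 1% or more, therefore lay above every one of these leukocyte barcodes, as did part of the comparison group. The ranked plot of casein share shows this continuous range.

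**Figure D1:**
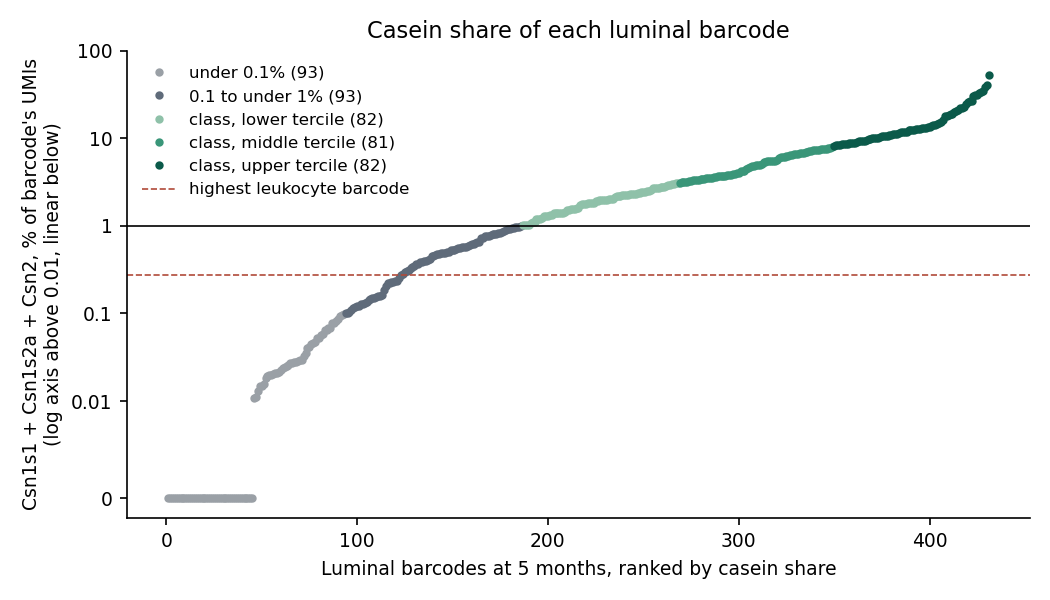
Casein share (percent of UMIs from Csn1s1, Csn1s2a and Csn2) of each of the 431 luminal barcodes of the 5 months library, ranked. The solid line marks the 1% limit and the dashed line the highest leukocyte barcode without Krt8 or Krt18 UMIs (0.275%). The ranking crosses the limit without a gap.

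The same rule found 0 of 1133 luminal barcodes at 2 weeks (which allows up to 0.265%, taken as 3 counts of the total), 3 of 397 in tumour 1 (0.756%, exact 95% binomial interval 0.156 to 2.19%) and 0 of 415 in tumour 2 (up to 0.723% on the same 3 counts). The highest casein share was 0.967% at 2 weeks, 2.83% in tumour 1 and 0.857% in tumour 2. These libraries are different sorts of different cells, so the counts describe libraries. The 5 months library had 15060411 UMIs (6722044, 23736366 and 13061942 in the 2 weeks, tumour 1 and tumour 2 libraries), with 4672 barcodes passing the gene and mitochondrial limits. It shared 7, 16 and 10 barcode sequences with those libraries, and no member was among them.

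Members had a median of 4941 UMIs, or 4546 without the 3 caseins, against 3842.5 and 3824.5 in the comparison group. The targeted genes were sparse: Trp53 stood at 33.2 CPM (UMIs per 1000000 UMIs outside the 3 caseins) in the class and 46.6 in the comparison group, and Brca1 had 1 UMI in each. Where the deleted parts lie relative to the 3' tags was not established, so these counts do not check the deletion. Krt8 (3062 and 3216 CPM) and Krt18 (3760 and 4091) were close in both groups. Among markers of other cells, T cell genes summed to 34.9 CPM in the class, 85.0 in the comparison group and 1488 in leukocyte barcodes, B cell genes to 25.5, 43.1 and 439, plasma cell genes to 492, 568 and 35172, and myeloid genes to 454, 697 and 14645. Fibroblast genes summed to 11.1 CPM in the class, with Col3a1 and Lum at 0, and to 128 in the comparison group, where 10 barcodes had 5 or more of these UMIs. Endothelial genes summed to 5.96 and 10.5 with Cdh5 and Cldn5 at 0 in the class, and none of 3 adipocyte genes was detected. All detected sums were lower in the class. Barcodes with 5 or more immune UMIs were left out as an alternative, and the part of the other markers in the comparisons was not tested.

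The caseins themselves sit with Csn3 in 1 cluster on chromosome 5 (GRCm38, chr5:87666208-87932550, 8 protein-coding genes). Csn1s1 and Csn1s2a are alpha caseins, Csn2 is beta casein, and Csn3 is kappa casein, which keeps the casein micelle soluble. The class held 20306 UMIs of Csn1s1, 43927 of Csn1s2a and 40126 of Csn2. Csn1s2b, between Csn1s2a and Csn3, had 166 UMIs in the class and 3 in the comparison group. The other genes of the cluster, Prr27, Odam and BC037156, had 0 UMIs in both groups, so detection was limited to the casein genes.

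The make-up of the casein RNA differed along the casein share. Members were divided by share into a lower (82 barcodes, 1.01 to 3.11%), middle (81, 3.13 to 7.94%) and upper tercile (82, 8.18 to 52.4%). Csn1s1 made up 36.0% of the 3 caseins' UMIs in the lower tercile (exact 95% binomial interval 34.9 to 37.1%), 24.8% in the middle (24.2 to 25.3%) and 16.2% in the upper (15.9 to 16.5%). In luminal barcodes with 0.1 to under 1% casein it was 55.8% (53.6 to 58.0%). Csn1s2a went the other way, with 16.3% in those barcodes and 31.1, 37.5 and 44.6% in the terciles, while Csn2 was 27.9% and then 33.0, 37.8 and 39.2%. So the order of Csn1s1 and Csn1s2a was opposite at the ends of the range. The same order held per barcode: among barcodes with at least 20 casein UMIs, the median Csn1s1 share was 64.8% in the 42 barcodes under 1%, and 33.5, 22.4 and 16.0% in the terciles. The quartiles of the lower tercile (21.7 and 51.5%) overlapped those of its neighbours. Under 0.1% casein, 94 UMIs gave a Csn1s1 share of 28.7% (19.9 to 39.0%), near the 22.1% (19.6 to 24.8%) of leukocyte barcodes and not near that of the 0.1 to under 1% barcodes. In the other libraries Csn1s1 was 42.2% of 576 casein UMIs at 2 weeks, 81.0% of 2254 in tumour 1 and 99.9% of 1107 in tumour 2. Casein genes set the strata, so these shares are descriptions.

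**Figure D2:**
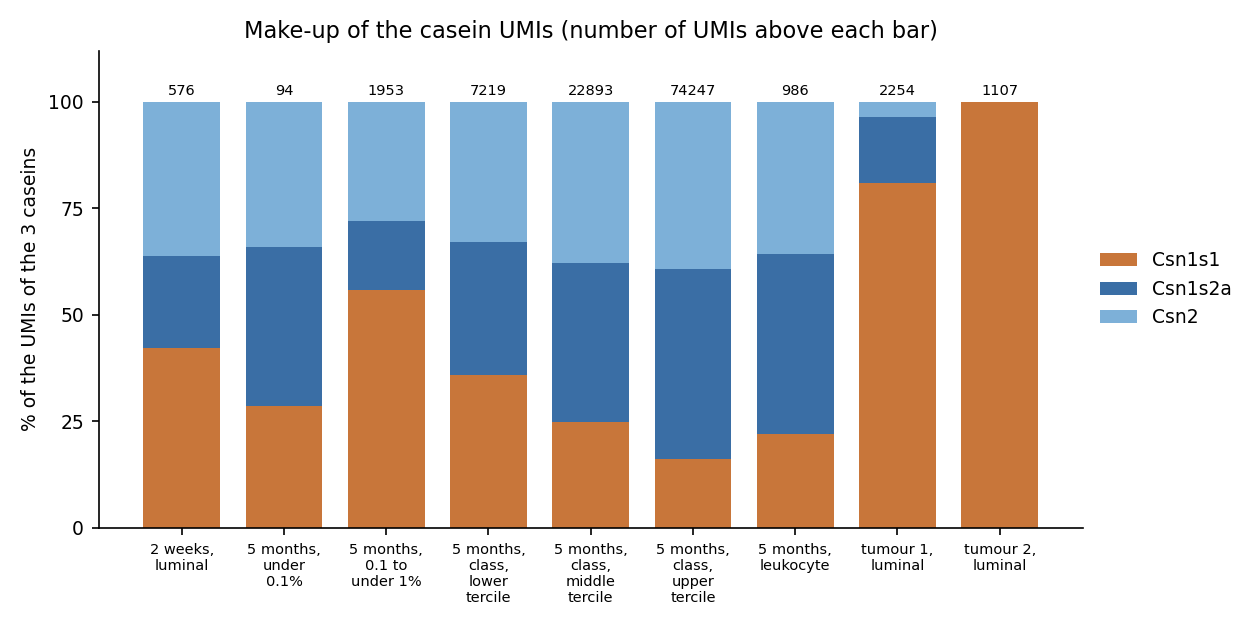
Stacked bars of the percent of casein UMIs from Csn1s1, Csn1s2a and Csn2 in 9 groups of barcodes. The Csn1s1 part is 55.8% at 0.1 to under 1% casein and 16.2% in the upper tercile of the class.

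Outside the 3 caseins, levels are in CPM as above, so the caseins do not weigh on the scale. A gene was called higher or lower at 2-fold or more after adding 1 CPM to both groups, with at least 50 CPM in the higher group. A listed gene under 50 CPM in both groups could not be called. Log2 ratios carry that added 1, and intervals are of the ratio without it. Of 2833 genes compared between the class and the comparison group, 108 were higher (3.81%) and 81 lower (2.86%), with a median log2 ratio of -0.01. When all UMIs set the scale, with the caseins in the total, 78 were higher and 102 lower.

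Milk protein genes were the group in which the members stood highest: 15 of 20 listed genes were called higher and 1 lower, with a median log2 ratio of 1.51 over the 19 with at least 10 UMIs. Lalba, alpha-lactalbumin, which with galactosyltransferase makes lactose, was at 2771 CPM in members and 165 in the comparison group. Its log2 ratio was 4.06 (3.82 to 4.32). Lalba was found in 159 of 245 members and 21 of 186 comparison barcodes. After thinning every barcode to 1000 UMIs, 49.8% of members had a Lalba UMI, against 6.99% of the comparison group and 0.466% of leukocyte barcodes. Median UMIs outside the caseins were 4546, 3824.5 and 2282 in those groups. Lalba was not part of the selection rule, and it therefore marked the members apart from the caseins that chose them.

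Csn3 was at 20394 CPM in the class and 3613 in the comparison group (log2 2.50, 2.44 to 2.55). Wap, whey acidic protein, was at 495 and 4.66 (log2 6.46). Its 582 UMIs came from 48 members, and 1 member held 267 of them (45.9%). Without that barcode the log2 ratio was 5.90, so the call did not rest on it. Glycam1 had 307 UMIs in 16 members and none in the comparison group, at least 74.8-fold higher against 3 counts over that group (44.1-fold without its top member). Lao1, a secreted amino-acid oxidase of milk, was found in 36 members and in no comparison barcode, at least 34.1-fold higher. Csn1s2b was 141 against 3.49 CPM (log2 4.99). Wfdc2, a whey-domain protein, was the exception at 117 against 905 CPM (log2 -2.94), and Wfdc18 (log2 0.58) and Muc1 (0.70) were not called.

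Of the 28 listed genes of milk fat synthesis and secretion, 10 reached 50 CPM, with 7 called higher and none lower (median log2 0.75 over 25 genes). Btn1a1, butyrophilin of the milk fat globule membrane, was at 358 CPM in the class and 43.1 in the comparison group (log2 3.03). Fabp3, a fatty acid carrier, was at 57.9 and 3.49 (3.71) from 14 members, and came under 50 CPM without its top member, and Xdh, xanthine oxidoreductase of the same membrane, at 97.0 and 17.5 (2.41). Scd1, a fatty acid desaturase, was at 258 and 106 (1.28). The lipid droplet coat gene Plin2 was at 999 and 426 (1.23). Fasn, fatty acid synthase, was at 68.1 and 47.7 (0.50) and was not called. The higher genes of this list thus included droplet, membrane and carrier genes.

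Among 20 genes of lactose synthesis and of ion or nutrient transport, 10 reached 50 CPM and 1 was called higher. It was Folr1, a folate receptor, at 380 CPM in the class and 66.3 in the comparison group (log2 2.50). The glucose transporter gene Slc2a1 (log2 0.95) and B4galt1, the galactosyltransferase that pairs with alpha-lactalbumin (0.12), were not called. Lalba therefore differed between the groups while its partner B4galt1 did not pass the fold.

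Prolactin and STAT5 genes were split: of 18 listed, 11 reached 50 CPM, with 2 called higher and 2 lower. Elf5, the alveolar transcription factor, was at 188 CPM in the class and 76.8 in the comparison group (log2 1.28), found in 121 of 245 and 43 of 186 barcodes. Tfap2c, a luminal transcription factor, was at 118 and 45.4 (1.36). Stat5a was at 43.4 and 25.6 (0.74) and was not called. Prlr, the prolactin receptor, was at 87.7 and 420 (-2.25). Socs2, a feedback inhibitor of this signalling, was at 15.3 and 53.5 (-1.74). The direction of Prlr rested on the comparison group: against its 128 barcodes with no hormone-sensing UMI, Prlr was at 82.1 CPM there and its log2 ratio was 0.09. In that comparison Elf5 (0.80), Tfap2c (0.91) and Socs2 (-0.69) were not called either.

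The comparison group was a mixture, since 58 of its 186 barcodes had a UMI of Esr1, Pgr, Foxa1, Cited1, Areg or Prom1, against 16 of 245 members. Of 12 hormone-sensing genes, 5 reached 50 CPM, with 0 called higher and 4 lower. Prlr is 1 of these 4 and is counted with the prolactin genes too. The median log2 ratio of the list was -2.58. Areg, the amphiregulin gene, was at 9.36 CPM in the class and 249 in the comparison group (log2 -4.59), and Cited1, a transcription co-regulator of these cells, had 1 UMI in the class and 121 in the comparison group (-6.26). The receptor genes Esr1 (3.40 and 14.0) and Pgr (0.851 and 10.5) were too low for the rule, as was Foxa1 (4.26 and 36.1). Of 14 basal genes 4 reached 50 CPM and 2 were lower, Krt17 (17.9 and 175, log2 -3.22) and Tagln (20.4 and 65.2, -1.63). In the comparison group 1 barcode held 81 of the 150 Krt17 UMIs. Without top barcodes Krt17 stayed lower (-3.10), but the Tagln call was lost. Krt5 (8.51 and 18.6) and Krt14 (72.4 and 52.4) were not called. When the comparison was limited to barcodes with no hormone-sensing UMI, the basal list had 2 higher and 2 lower. Its median log2 ratio was then 0.63 in place of -0.98, and Krt14 was called higher (1.70). Against the barcodes with no hormone-sensing UMI, 11 milk protein and 5 milk fat genes were called higher, 77 genes were higher in all and 80 lower, and 54 of the first and 31 of the second were also called in the main comparison.

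Of 16 progenitor and alveolar genes, 13 reached 50 CPM, with 5 called higher and 1 lower. Against the barcodes with no hormone-sensing UMI the list had 2 higher and 2 lower, and its median log2 ratio was 0.21 in place of 0.70. Cd14, a lipopolysaccharide co-receptor on luminal progenitors, was at 581 and 234 CPM (log2 1.31), and its call was lost in that comparison (0.85). Kit, a progenitor receptor, was at 69.8 and 38.4 (0.85) and was not called, and the keratin Krt7 was at 173 and 434 (-1.32). From the milk protein list, Spp1, osteopontin, a milk phosphoprotein, was at 9432 and 2162 CPM (2.12), and Trf, transferrin, at 7256 and 2616 (1.47). Ltf, lactoferrin, was at 3107 and 1153 (1.43), but its ratio was 0.77 against barcodes with no hormone-sensing UMI.

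Genes of involution, the phase in which milk-making tissue is dismantled, had 6 of 20 called higher and none lower, and genes of epithelial immune defence 8 of 20 higher. In these lists 15 and 14 genes reached 50 CPM. The lists overlap: Saa1, Saa2 and Lbp are in both, Lbp and Cd14 also in the progenitor list. Ltf, Lcn2 and Pigr of the defence list are milk proteins too. Elf5 is in the prolactin and progenitor lists, Prlr in the prolactin and hormone-sensing lists, and Trf in the milk protein and progenitor lists. Slc2a1 is in the transport and hypoxia lists. The counts of these lists are therefore not separate. Saa1, an acute-phase apolipoprotein, was at 624 CPM in the class and 78.0 in the comparison group (log2 2.98, or 3.68 without its top barcodes) and came from 37 members. Its near-identical copy Saa2 was at 249 and 34.9 (2.80, or 4.15 without its top barcodes), so reads may be split between the copies. Lbp, which binds lipopolysaccharide, was at 221 and 66.3 (1.72), and Igfbp5, an insulin-like growth factor binding protein, at 1497 and 549 (1.44). Of 20 secretory pathway genes 18 reached 50 CPM and 0 were called, and the chaperone gene Hspa5 was at 1042 and 1007. Its median per barcode was 893 in the class and 618 in the comparison group, where the highest barcode was at 16163 CPM. The median log2 ratio of this list was 0.08, or 0.33 without top barcodes, with 0 called in either case. Among 18 hypoxia and glycolysis genes 10 reached 50 CPM and 2 were higher, Vegfa (97.0 and 39.6, log2 1.27) and the glycolytic enzyme gene Pfkl (1.28). Against the barcodes with no hormone-sensing UMI neither was called (0.76 and 0.93), involution had 4 genes higher, and defence 5 higher and 1 lower. None of 14 immediate early and 14 tight junction genes was called, of which 14 and 8 reached 50 CPM. Cell cycle and p53 target genes were mostly too low for the rule, as only 2 of 20 S phase, 1 of 20 G2 and M phase and 4 of 16 p53 target genes reached 50 CPM. S phase genes summed to 263 CPM in the class and 419 in the comparison group (median log2 -0.97), and G2 and M phase genes to 144 and 315 (-1.05). Few barcodes carried the G2 and M phase sums: 1 member held 42 of 169 UMIs and 1 comparison barcode 79 of 271. Only 2 members and 9 comparison barcodes had 5 or more of these UMIs. The plot of list members shows the spread behind these counts.

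**Figure D3:**
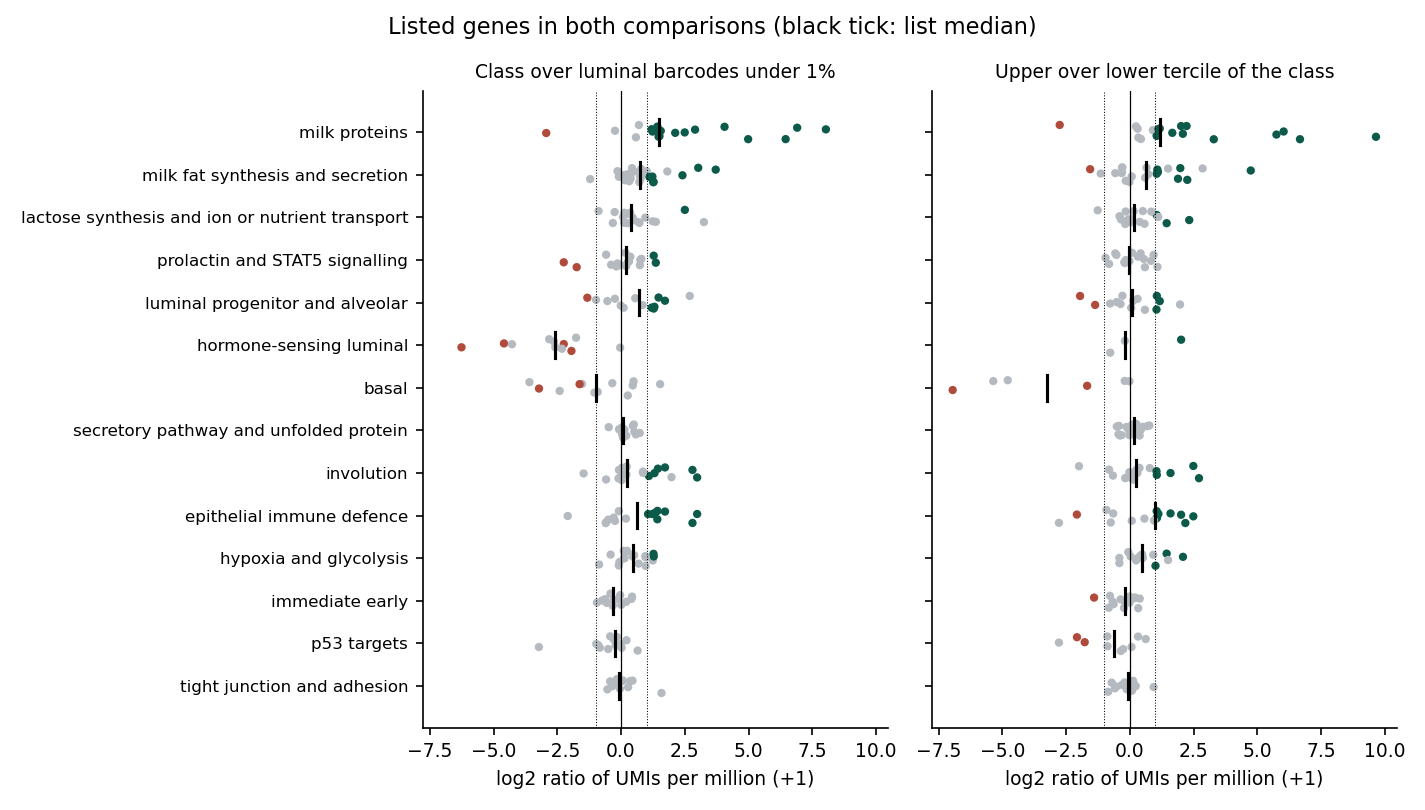
Log2 ratio, class over comparison group and upper over lower tercile, of each member with at least 10 UMIs in 14 gene lists (green higher, red lower, grey not called; black tick, list median; dotted lines, 2-fold). Milk protein genes have a median of 1.51 in the first comparison and 1.18 in the second.

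Within the class the upper tercile was set against the lower: of 2932 genes, 170 were higher (5.80%) and 175 lower (5.97%), with a median log2 ratio of -0.09. Scaled to all UMIs these counts were 89 and 293, and with TMM factors 216 and 115, so the balance of directions depended on the scale. Median UMIs without caseins were 4300, 4619 and 4628.5 from the lower to the upper tercile. Of 20 milk protein genes 13 were higher and 1 lower (9 and 1 with all UMIs). Of 28 milk fat genes 12 reached 50 CPM, with 7 higher and 1 lower (4 and 1 with all UMIs).

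Lalba was at 647, 1430 and 6355 CPM in the lower, middle and upper tercile (upper over lower, log2 3.29), against 251 in barcodes with 0.1 to under 1% casein, 82.4 under 0.1% and 3.66 in leukocyte barcodes. Its median per member was 0, 532 and 4104 CPM, with a lowest value of 0 in each tercile and highest values of 12240, 11345 and 31355. The terciles therefore overlapped member by member. Thinned to 1000 UMIs, 19.5, 42.0 and 79.3% of members had a Lalba UMI (43.9, 63.0 and 87.8% before thinning).

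Csn3 was at 10519, 17444 and 33428 CPM in the terciles (log2 1.67). Its median per member was 8136, 15712 and 30294, with lowest values of 0 and highest values of 44406, 60196 and 182113. It was already at 6320 in barcodes with 0.1 to under 1% casein, where Wap (4.73) and Glycam1 (0) were at or near the floor. Wap was at 13.3, 52.4 and 1462 CPM (log2 6.68), and Glycam1 at 0, 2.38 and 806, at least 101-fold higher in the upper than in the lower tercile (60.0-fold without its top member). Lao1 was at 5.32, 21.5 and 340 (log2 5.75). Csn3, Lalba and Wap thus had UMIs in every stratum, and Csn3 and Lalba were also highest in the upper tercile. That tercile held 555 of the 582 Wap UMIs of the class, 306 of 307 for Glycam1 and 129 of 140 for Lao1.

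Btn1a1 was at 128, 334 and 614 CPM (log2 2.26), Xdh at 37.3, 102 and 150 (1.98), and Folr1 at 141, 293 and 714 (2.33). Slc2a1 was at 114, 203 and 313 (1.45), and B4galt1 at 42.6 and 89.6 in the lower and upper tercile (1.05). Neither was called between the class and the comparison group, and the B4galt1 call was lost when all UMIs set the scale (0.83). Elf5 was at 141, 207 and 213 (0.59), Stat5a had a log2 ratio of 0.09, Prlr of -0.19 and Kit of -0.51. None of the 18 prolactin and STAT5 genes was called, of which 10 reached 50 CPM. Hspa5 was at 966, 1006 and 1157 CPM, with a median per member of 754, 938 and 946.

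**Figure D4:**
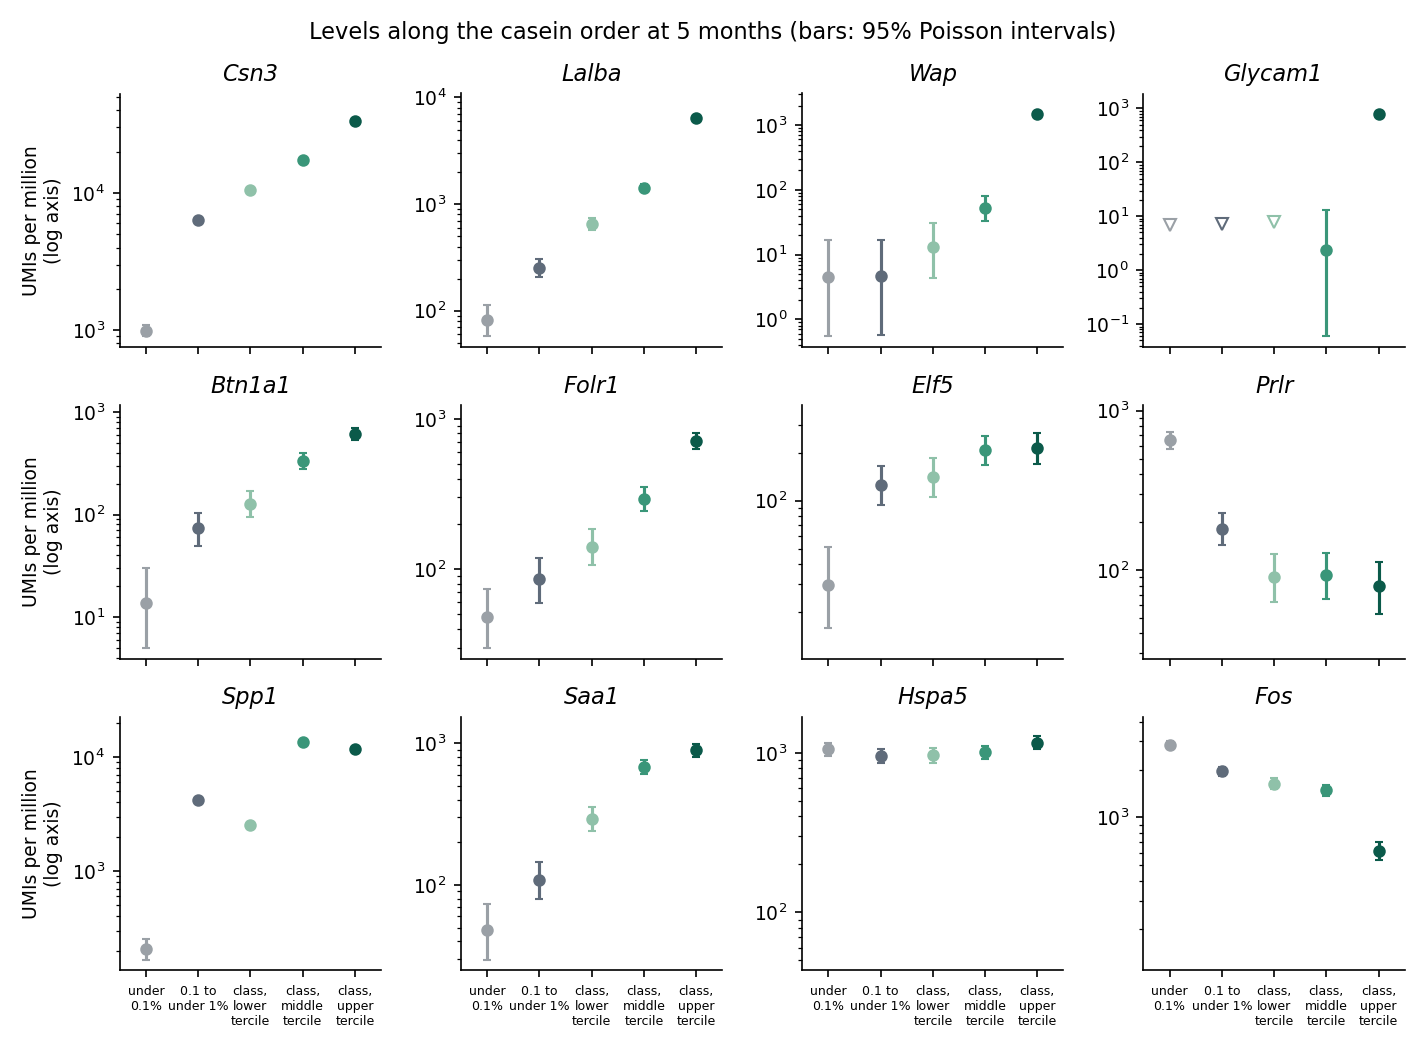
CPM (UMIs per 1000000 UMIs outside the 3 caseins) (log axis) of 12 genes in 5 strata of luminal barcodes from the lowest to the highest casein share; bars are exact 95% Poisson intervals and open triangles the level of 3 counts where no UMI was found. Lalba runs from 82.4 to 6355 CPM, Wap and Glycam1 stand high in the last stratum alone, and Fos runs from 2858 to 617.

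Defence and hypoxia genes were also among the higher genes of the upper tercile, with 8 of 20 and 3 of 18 called (1 defence gene was lower). In these lists 14 and 10 genes reached 50 CPM. Cd74, also a myeloid marker, was 1 of the 8 defence genes. Its log2 ratio was -0.19 without barcodes that had 5 or more immune UMIs. With all UMIs as the scale the defence counts were 4 and 1, and the hypoxia counts 2 and 0. Slc2a1, given above with the transport genes, was 1 of the 3 hypoxia genes. Saa1 was at 293, 682 and 888 CPM in the terciles (log2 1.60) and Vegfa at 34.6, 105 and 150 (2.09). Genes lower in the upper tercile included Hspb1, a small heat shock protein, at 1059, 489 and 195 (-2.44), Krt7 at 298, 148 and 76.4 (-1.95) and the immediate early gene Fos at 1629, 1487 and 617 (-1.40). Fos was the only gene called of 14 immediate early genes, and all 14 reached 50 CPM. The median log2 ratio of that list was -0.20, against -0.09 for all genes. Mdm2, a p53 target (-2.07), and Krt14 (-1.67, or -4.32 without its top barcodes) were lower too, although Trp53 itself was sparse. Acta2, a smooth muscle actin of basal cells, was at least 15.5-fold lower, but 76.1% of its UMIs in the lower tercile came from 1 barcode and the call was lost without it.

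Myeloid markers summed to 170, 348 and 851 CPM from the lower to the upper tercile. The members with any of these UMIs were 37, 42 and 37, and 1 barcode held 206 of the 323 UMIs of the upper tercile. Of 6 listed, 3 reached 50 CPM, and these 3 were called higher. Without top barcodes, 1 gene of this list was called. Cd74 was at 146 and 667 CPM in the lower and upper tercile, with 62.5% of the upper UMIs from 1 barcode, and without the barcodes that had 5 or more immune UMIs its log2 ratio was -0.19. Of the barcodes with 5 or more immune UMIs, 5 were in the upper tercile and 0 in the lower. Without them 160 genes were higher and 187 lower in the upper tercile, and 101 higher and 82 lower in the class. S100a8, a calcium-binding protein of neutrophils and stressed epithelium, was at 24.0, 312 and 242 CPM.

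Members were unlike one another. Variance relative to the counting expectation (dispersion, 1 for Poisson counts) had a median of 1.19 over 2528 genes with at least 50 CPM. It was 283 for Spp1, 104 for Csn3, 120 for Wap, 68.8 for Glycam1 and 1.39 for Elf5. For a gene that varies between members this measure grows with the mean count, so it does not rank genes of unlike abundance. Csn3 had 23958 UMIs in 236 members, with 2.48% in its top member, and Elf5 had 221 UMIs. The 11080 Spp1 UMIs came from 109 members, and 12 of them held 51.0%. Glycam1 UMIs were concentrated further, with 127 of 307 (41.4%) in 1 member and 98.7% in 12.

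Wap and Glycam1 were both detected in 7 members, which is 14.6% of the 48 with Wap and 43.8% of the 16 with Glycam1. Wap was detected in 19.6% of all members and in 42.7% of the upper tercile. The member with most Wap had 267 Wap and 3 Glycam1 UMIs at 40.4% casein, the member with most Glycam1 had 127 Glycam1 and 0 Wap UMIs at 21.0% casein, and the member ranked next for both had 74 Wap and 102 Glycam1 UMIs at 10.5% casein. Spp1 was detected in 36 of the 37 members with Saa1 (97.3%), against 44.5% of all members. The plot of single members shows that a high casein share came with high Wap or Glycam1 in few of them.

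**Figure D5:**
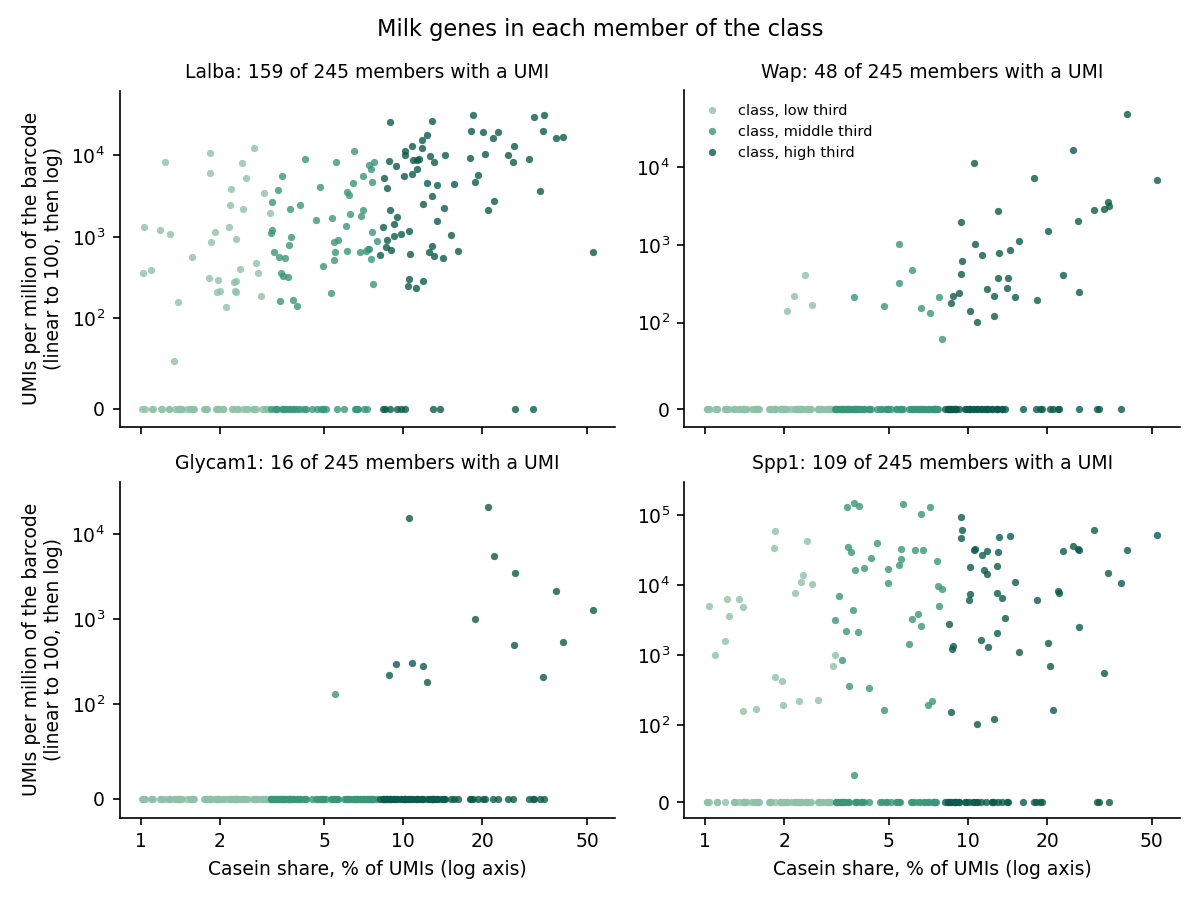
CPM (UMIs per 1000000 UMIs outside the 3 caseins) of Lalba, Wap, Glycam1 and Spp1 in each of the 245 members against casein share (percent of UMIs). Lalba is present in 159 members along the whole range, while Wap (48 members) and Glycam1 (16) lie mostly at high casein share.

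Across the 245 members, which share 1 library and differ in depth, Spearman's rho with casein share was 0.54 for Lalba, 0.49 for Csn3, 0.49 for Btn1a1, 0.45 for Folr1, 0.45 for Wap, 0.44 for Lao1, 0.38 for Trf, 0.37 for Lcn2, 0.37 for Ldha and 0.37 for Cck, which were the 10 highest. The 5 lowest were the ribosomal protein genes Rps19 (-0.36), Rps6 (-0.35) and Rpl21 (-0.35), then Lgals3 (-0.34) and Tagln2 (-0.34). Of the 2528 genes, 15 had a rho of at least 0.3 and 11 of at most -0.3.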

How the data were processed

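Cell Ranger was used with mm10 (GRCm38), per the submitters' processing notes; its version is not given in the sources used here. Values deposited by the authors were raw counts of UMIs per gene and barcode from 3' v2 libraries. The mm10_ prefix was removed. Members, gene lists and tests were chosen with earlier results of these data known. No count model was used, since all groups compared came from 1 library: UMIs were summed per group and divided by UMIs outside the 3 caseins, with exact Poisson and Clopper-Pearson 95% intervals, which cover counting error only. The calculation was tested on simulated data. Scrublet's automatic threshold called 0 doublets, so none were removed, and removing the 187 highest scores (0.8% per 1000 barcodes), 4 members among them, was an alternative. Named genes were those past the rule with the largest ratios, up to 4 a list and direction, the 10 largest in each direction outside lists, and fixed receptors and transcription factors. Csn3, Spp1, Trf, Plin2, Hspa5, Fos, B4galt1, Slc2a1, Fasn, Muc1, Wfdc18 and the genes with the highest and lowest rho were added after their values were seen. Software was Python 3.11.15, scanpy 1.11.5, scipy 1.17.1 and, for TMM factors, edgeR 4.0.16.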

Additional observations from a re-analysis of the deposited data

How the results depend on the processing

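The class had 245 members, 120 with mitochondrial UMIs at most 5%, and 200 to 283 under the other limits tried. Of the counts for class over comparison group (108 higher, 81 lower), a floor of 20 CPM gave 202 and 265, a floor of 100 gave 56 and 44, and a 1.5-fold limit gave 268 and 216. Casein of at least 2% against under 0.5% gave 137 lower. For the terciles (170 and 175), all UMIs as the scale gave 89 and 293, TMM factors 115 lower, a floor of 20 CPM 426 and 604, a floor of 100 gave 80 and 54, and 1.5-fold 368 and 526. The cause was not tested beyond the number of genes each limit admits. The median log2 ratio of all genes went from -0.01 to -0.13 with all UMIs and 0.10 with TMM factors, and for the terciles from -0.09 to -0.36 and 0.05.

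Of the values of single genes under the alternatives, 1170 stayed within their interval, 85 moved and 8 reversed. Comparison barcodes with no hormone-sensing UMI, a choice made after seeing the data, turned Agtr1a to 1.24, Areg to 3.37, Cited1 to 0.89, Dcn to 0.34, Lyz2 to 0.36 and Prlr to 0.093. That group excludes barcodes with Areg or Cited1 by construction. Leaving out barcodes with 5 or more immune UMIs, also chosen after seeing the data, turned Cd74 to -0.19 and Tyrobp to -0.58 between terciles. The call of Apod was lost without its top barcode. No paired analysis was possible because both groups of each comparison came from 1 library. Levels below 2.55 CPM in the class and 3.49 in the comparison group correspond to 3 counts or fewer.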

Other observations

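Several genes outside the lists stood among the largest ratios between the class and the comparison group. Klk10, a secreted serine protease, was at 63.8 CPM in the class and 4.66 in the comparison group (log2 3.52), under 50 CPM without its top member, and Dppa1 at 71.5 and 6.98 (3.18). Apod, a lipid-binding lipoprotein, was at 97.0 and 2.33, but 106 of its 114 UMIs in the class came from 1 member. Ptn, the growth factor pleiotrophin, was at 144 and 2784 (-4.26). Calca, the calcitonin gene, was at 4.26 and 243 (-5.54), Cdo1, a cysteine dioxygenase, at 0.851 and 122 (-6.06), and Mgp, matrix Gla protein, at 14.5 and 243 (-3.98), with 135 of its 209 comparison UMIs in 1 barcode. None of these 4 was called against the comparison barcodes with no hormone-sensing UMI, where Ptn was at -0.37, Calca at -1.28, Cdo1 at -1.41 and Mgp at -0.54. The haemoglobin gene Hba-a1, which has a near-identical copy, had no UMI in the class and was at least 25.1-fold lower. It also had 0 UMIs in the comparison barcodes with no hormone-sensing UMI.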
